A study of Homo sapiens with 4 samples.

Results

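Fragments of the mRNAs of cytosolic ribosomal proteins were examined in total small RNA libraries of HCT116 Drosha k.o. cells. The members were chosen by gene symbol alone: RPL or RPS with a number (with or without A, X, L, AL or L1), RPLP0, RPLP1, RPLP2 and RPSA. This rule took 85 of 26485 gene symbols, 53 of them for the large and 32 for the small ribosomal subunit. HCT116 is a human colon carcinoma line. In the Drosha k.o. line used for both groups, the gene of Drosha, the nuclear nuclease that starts miRNA maturation, had been inactivated. The vector group carried the empty virus pLenti-GIII-CMV-RFP-2A-Puro and the CD95L group the same virus with CD95L (gene symbol FASLG), the ligand of the death receptor CD95. For HCT116 cells the study's methods name the form CD95L MUT NP, which cannot bind CD95 and has a stop codon just behind the start codon. Both groups underwent puromycin selection at 3 µg/mL and were harvested after 50 h, counted from plating in the methods and from selection in another label. There were 2 libraries per group, said to be duplicates, with the step at which they parted not given, so that p-values measure only the spread between these libraries, which may be technical. The titles of both vector libraries alone are marked (# 2), which the labels do not explain. A batch of that kind and the groups cannot be told apart.

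The ribosome joins amino acids into protein and consists of a small subunit, which reads the mRNA, and a large subunit, which forms the peptide bond. Each subunit holds ribosomal RNA and one copy of most of its proteins, whose genes are scattered over the genome and among the most strongly expressed in dividing cells. Their mRNAs start with a pyrimidine tract (the TOP motif), through which mTOR signalling sets their translation. Many of the genes carry small nucleolar RNAs (snoRNAs) in their introns. Most of the genes have also left processed pseudogenes, copies of the mRNA pasted elsewhere in the genome.

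The libraries were deep, with 22488145 to 25163566 reads assigned to genes. Levels are in CPM (reads per 1000000 gene reads), so they are shares of a library and not amounts per cell, and fewer cells and less RNA per cell cannot be told apart. Intervals cover counting error only, and may be too narrow even for that, since reads without molecular identifiers are not independent molecules. FASLG had 1.16 CPM in vector replicate 1 and 2.94 CPM in vector replicate 2, against 94.9 CPM and 90.5 CPM in CD95L replicates 1 and 2 (limma, adjusted p = 3.55e-05). DROSHA fragments were counted in all 4 libraries (10.1 to 13.6 CPM), which does not check the knockout, since both groups carry it. The 12 epithelial and colon markers summed to 148 to 157 CPM per library, led by the epithelial keratins KRT18 and KRT8. The 7 fibroblast markers summed to 51.9 to 61.9 CPM and the 7 leukocyte and blood markers to 6.40 to 12.9 CPM, and none of the 26 was at 0 in all 4 libraries. A library's reads are mostly small RNA: 26.7% to 34.4% of reads fell on genes without a small RNA symbol.

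The identity of a fragment is limited by the copies of these genes. Over the coding sequences, a median of 18.8% of the windows of 25 bases occurred nowhere else in the hg38 reference, and in 63 of the 85 genes fewer than 50% did. The annotation (GENCODE release 44) holds 1600 pseudogenes named after 78 of the genes. RPL21 (chromosome 13) had 133 of them and RPL23A (chromosome 17) had 91, and RPL21 had no coding window of its own. The same was true of RPL7, RPL36A, RPL39, RPL41, RPS3A, RPS10, RPS26, RPS27 and RPS28. The level of a gene with few windows of its own is therefore uncertain, as the treatment of reads with several matches was not given in the sources used here. Across the 85 genes the share of windows found only in the gene was weakly related to level. Spearman's rho was -0.189 with the level per kb of coding length and -0.25 with mean CPM. For the number of pseudogenes it was 0.267 and 0.32. These are descriptions over genes, which are not independent replicates. In the table, the 31 pseudogene symbols together reached 35.8 to 48.5 CPM. Leaving snoRNAs aside, exons of 21 of the genes also overlap exons of another gene with a deposited symbol, mostly on the opposite strand. Their counts cannot be assigned with certainty because the strand setting was not given. Of the 54 snoRNAs with a deposited symbol that members host, 42 also overlap an exon of their host, on the same strand.

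The closest copies among the members are the paralog pairs. Their first 60 coding bases, from GENCODE, are shown for the pairs of highest identity because they show how few bases separate the counts of one gene from those of the other. Capitals mark the bases that differ within a pair.
RPL39 (chromosome X): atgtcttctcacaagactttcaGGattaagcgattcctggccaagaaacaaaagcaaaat
RPL39L (chromosome 3): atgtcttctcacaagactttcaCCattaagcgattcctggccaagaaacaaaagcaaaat
RPL36A (chromosome X): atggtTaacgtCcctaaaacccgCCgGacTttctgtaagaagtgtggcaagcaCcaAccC
RPL36AL (chromosome 14): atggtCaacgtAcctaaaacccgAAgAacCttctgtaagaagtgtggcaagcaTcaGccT
RPL10 (chromosome X): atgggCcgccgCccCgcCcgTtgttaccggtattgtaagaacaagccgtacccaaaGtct
RPL10L (chromosome 14): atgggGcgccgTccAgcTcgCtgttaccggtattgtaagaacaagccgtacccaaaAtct
Over the whole coding sequence RPL39 and RPL39L were identical at 94.9% of bases, RPL36A and RPL36AL at 90.0%, and RPL10 and RPL10L at 89.3%. The pairs RPL26 and RPL26L1 (84.3%), RPS27 and RPS27L (78.0%), RPL3 and RPL3L (75.6%), RPL22 and RPL22L1 (67.9%) and RPL7 and RPL7L1 (57.7%) were less alike. The longest identical run was 63 bases for RPL36A and its paralog and 11 bases for RPL7 and its paralog.

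Ribosomal protein fragments were a minor part of the gene reads. Their share was 0.257% (95% exact binomial interval 0.255% to 0.259%) and 0.260% (0.258% to 0.262%) in the vector libraries. It was 0.238% (0.236% to 0.240%) and 0.221% (0.219% to 0.223%) in the CD95L libraries. Both CD95L libraries lay below both vector libraries, with 0.229% ± 0.0119 (SD, n = 2) against 0.259% ± 0.00206 (SD, n = 2). With 2 against 2 libraries an exact permutation test cannot go below p = 0.33, so none was run. RPL7A and RPL34 together supplied 26.0% and 22.7% of the member reads in vector cells and 19.6% and 25.5% in CD95L cells. Without these genes (chosen after the values were seen) the shares were 0.191% and 0.201% in the vector and 0.191% and 0.164% in the CD95L libraries. The difference of the means was then -0.0182 in place of -0.0297 percentage points, and CD95L replicate 1 no longer lay below vector replicate 1. The share of small RNA in the libraries differed too. Counted among the reads of genes without a small RNA symbol, the members took 0.778% and 0.845% in the vector and 0.889% and 0.641% in the CD95L libraries, so that the CD95L libraries were the highest and the lowest of the 4. The part of the small RNA share in the result was not tested.

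**Figure D1:**
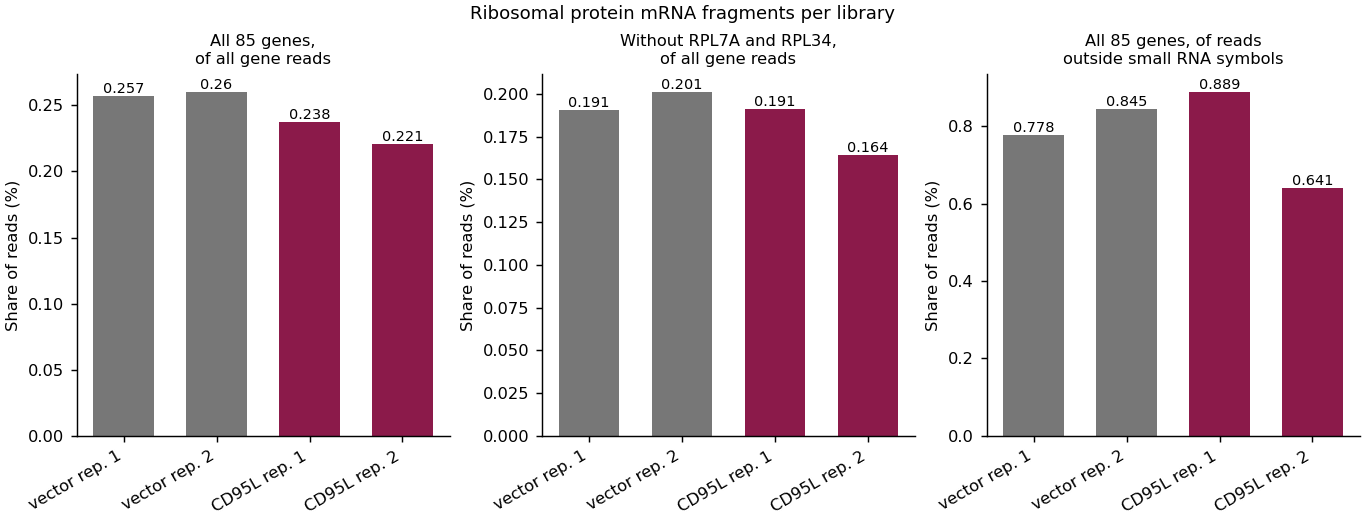
Bars give the share of reads (percent, axis from 0) of the ribosomal protein genes in each of the 4 libraries: of all gene reads (left), of all gene reads without RPL7A and RPL34 (centre), and of reads outside small RNA symbols (right). The CD95L bars are both below the vector bars in the left panel only; in the right panel CD95L replicate 1 is the highest (0.889%) and CD95L replicate 2 the lowest (0.641%).

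Fragments of large subunit mRNAs were more abundant than those of the small subunit. Large subunit genes summed to 1835 and 1796 CPM in the vector libraries and to 1617 and 1570 CPM in the CD95L libraries. Small subunit genes summed to 740 and 808 CPM in the vector libraries and to 759 and 638 CPM in the CD95L libraries. The groups did not overlap for the large subunit and overlapped for the small subunit. The ratio of large to small was 2.48 and 2.22 in vector cells and 2.13 and 2.46 in CD95L cells, and each group held a high and a low value. Dividing each gene by its coding length gave ratios of 2.55, 2.31, 2.27 and 2.49 in the same order. Without RPL7A and RPL34 the large subunit sums were 1166 and 1205 CPM in the vector and 1151 and 1006 CPM in the CD95L libraries. CD95L replicate 1 then lay only just below vector replicate 1. The ratios of summed CPM without these genes fell to between 1.49 and 1.58, near the 51 to 32 split of the remaining genes. The median gene did not share the excess, at 42.1 CPM per kb in the large and 47.0 CPM per kb in the small subunit.

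The levels of the single genes ran from 0.222 to 322 CPM with a median of 20.6 CPM, and no gene was at 0 in any library. RPL7A (chromosome 9, 133348218 to 133351426), a large subunit protein, was the highest at 385 and 350 CPM in the vector and 212 and 339 CPM in the CD95L libraries. CD95L replicate 1 stood below the other libraries, and the groups did not overlap. RPL34 (chromosome 4, 108620569 to 108630412) followed with 283 and 241 CPM in the vector and 254 and 224 CPM in the CD95L libraries, with overlapping groups. Every other member stood below 100 CPM in each library. RPLP0, the base of the stalk that recruits translation factors to the large subunit, was at 64.1 and 70.1 CPM in vector cells, against 70.4 and 53.9 CPM in CD95L cells. RPL41, the shortest ribosomal protein, was at 69.8 and 69.7 against 61.1 and 54.4 CPM. RPS6, the small subunit protein phosphorylated by the S6 kinases, led its subunit with 49.5 and 70.4 against 62.2 and 48.3 CPM. Vector replicate 2 and CD95L replicate 1 were its high libraries, so the groups overlapped. RPS7 had 43.5 and 51.1 against 43.5 and 42.3 CPM. RPL7, RPS19 and RPLP1 were also among the 10 highest, between 37.4 and 48.2 CPM in every library.

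**Figure D2:**
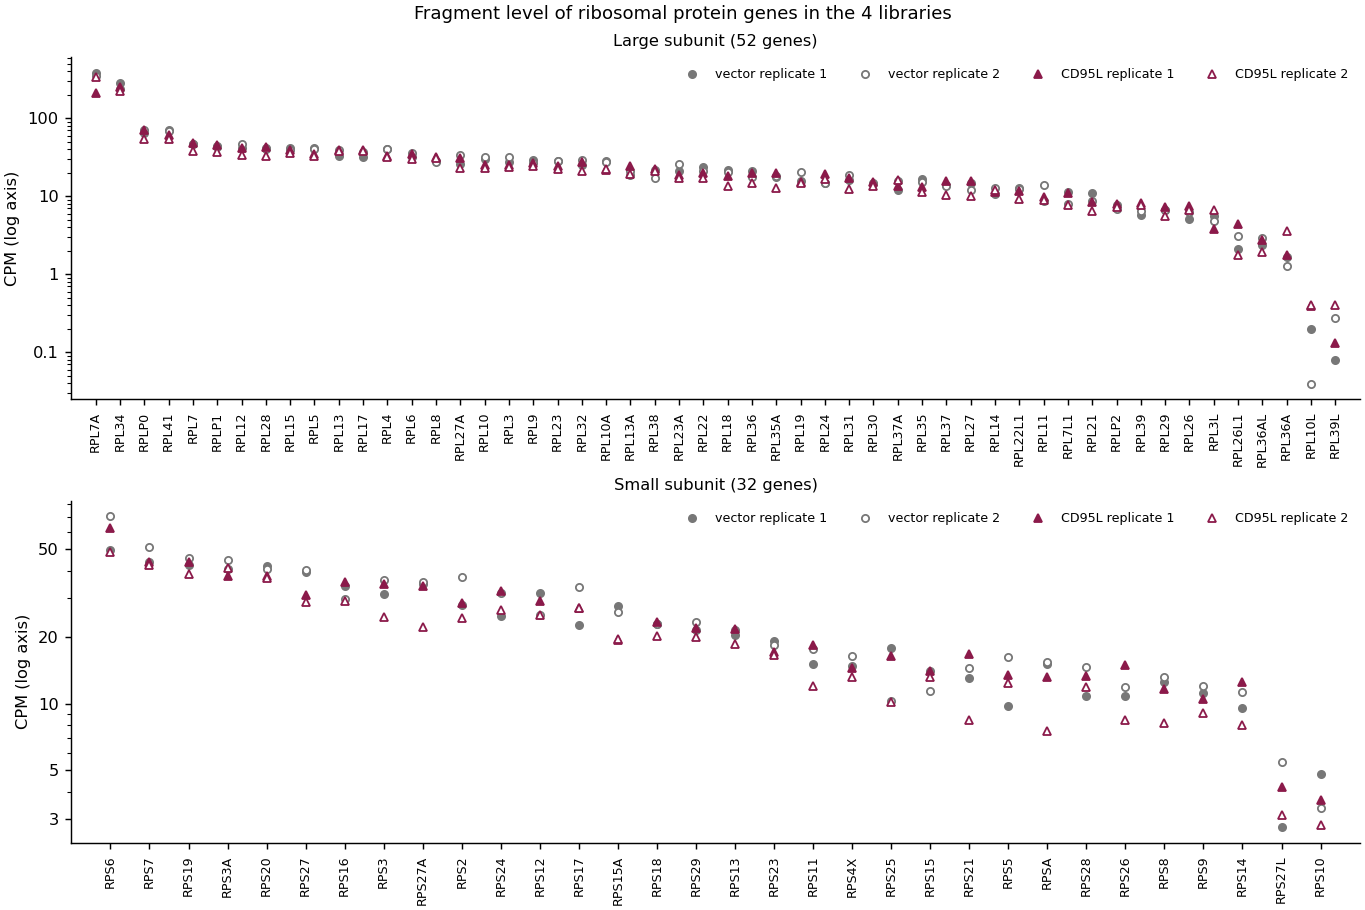
Points give the level of 84 of the 85 genes in CPM (log axis) in the 4 libraries, with large subunit genes above and small subunit genes below, each ordered by mean level. RPL7A and RPL34 stand apart from the other genes, and the paralogs RPL10L and RPL39L lie below 1 CPM in every library.

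Per kb of coding length the order changed. RPL41 was first at 817 CPM per kb (mean of the 4 libraries), followed by RPL34 at 708 and RPL7A at 402 CPM per kb. RPS27, a zinc finger protein of the small subunit, came next at 137 and RPS29, likewise a zinc finger protein, at 127 CPM per kb. The coding sequence of RPL41 is 78 bases of an annotated mRNA of 676 bases, and where in the mRNA the fragments lay was not analysed here. Of its 54 coding windows none occurred only in the gene. RPL7A (7.98% of windows only in the gene, 80 pseudogenes), RPL34 (10.6%, 21 pseudogenes) and RPS29 (17.0%, 32 pseudogenes) share that limit. RPS27 (30 pseudogenes) had no window of its own either.

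No ribosomal protein gene passed the threshold for a difference between CD95L and vector cells. Differences are CD95L minus vector on the log2(CPM + 1) scale, fitted with limma over the 16127 genes averaging 1 CPM or more, which included 83 of the 85 members. RPL10L and RPL39L fell below that level. Of these 83 genes 0 passed an adjusted p of 0.05, where 0.00620% of all genes tested passed. No member had an unadjusted p under 0.05 in this fit, where 867 of all 16127 genes had one. Every member's adjusted p was 0.923 or higher. Other settings of limma gave up to 13 members with an unadjusted p under 0.05, and none called a member. The 13 of 85 members came with no filter on low genes, where 2138 of 26485 genes had one (smallest adjusted p of a member 0.55). A pseudocount of 5 gave 4 of 83 members and 903 of 16127 genes. edgeR on the recovered reads called 0 members too, where it called 0.446% of all genes. In edgeR 1 member and 1056 of 16127 genes had an unadjusted p under 0.05. DESeq2 called 0 members, and 0 members and 775 of 16127 genes had an unadjusted p under 0.05. The standard error of a member's difference was 0.24 to 0.32.

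Small differences leaned toward lower levels in CD95L cells. The difference was negative for 65 of the 83 genes (78.3%), compared with 50.8% of all genes tested. It was negative in 38 of 51 large and 27 of 32 small subunit genes. The median difference was -0.12 over the members, -0.13 over the large and -0.11 over the small subunit genes, and -0.0052 over all genes. Both CD95L libraries lay below both vector libraries in 28 of the 83 genes (18 large, 10 small), 33.7% against 19.0% of all genes. They lay above in 6 genes, all of the large subunit, 7.23% against 16.0% of all genes. Among the 4324 genes that averaged 10 CPM or more, 26.7% lay below and 60.5% were negative, and of the 71 members in that range 27 (38%) lay below.

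**Figure D3:**
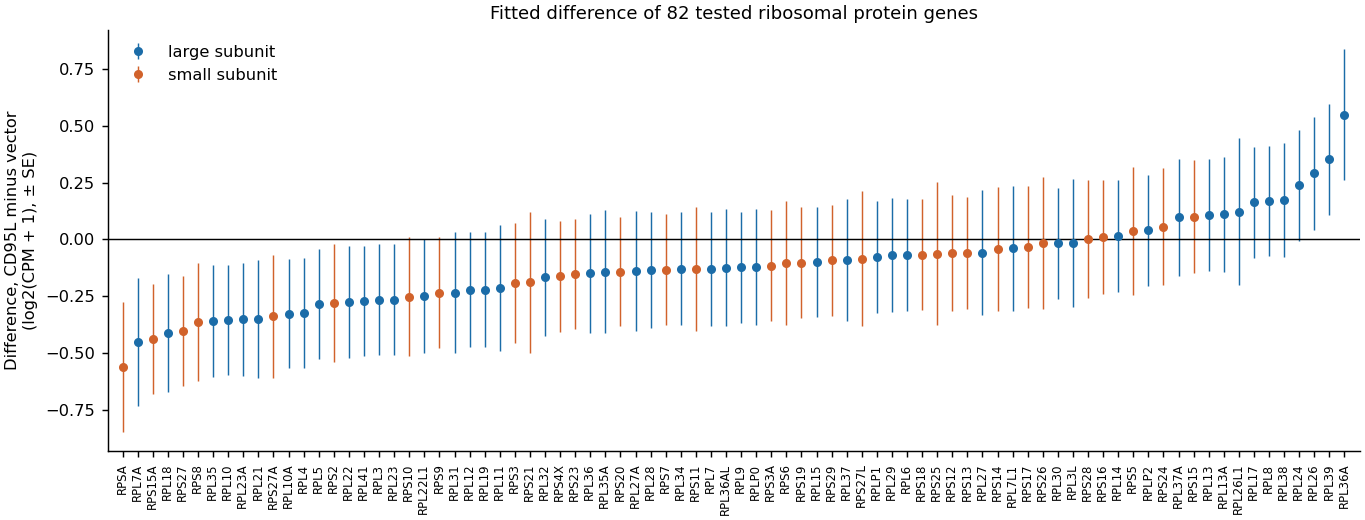
Points give the fitted difference (CD95L minus vector, log2(CPM + 1) scale) of 82 of the 83 tested genes in ascending order, with bars for the standard error (SE) and colour for the subunit. Most points are below 0, from -0.56 for RPSA to 0.55 for RPL36A, and none passed the threshold.

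The lean rested on 1 library. Set against the mean of the vector libraries, CD95L replicate 2 was lower in 71 of the 83 genes (median -0.28, all genes 0.062) and CD95L replicate 1 in 40 (median 0.025, all genes -0.074). CD95L replicate 1 was above CD95L replicate 2 in 74 of the 83 genes. Without CD95L replicate 2 the median difference was 0.025 over the large and 0.0096 over the small subunit genes. Without CD95L replicate 1 the medians were -0.30 and -0.24. Leaving out vector replicate 1 gave a median of -0.16 over the members, and leaving out vector replicate 2 gave -0.09. CD95L replicate 2 was also the library with the largest share of reads on genes without a small RNA symbol (34.4%, against 26.7% in CD95L replicate 1), and the part of this in the result was not tested. Marker genes of other cell types had mostly positive differences. All 3 tested leukocyte and blood markers were positive (median 0.53), the highest of them at a mean of 4.25 CPM. Of 5 tested fibroblast markers 4 were positive (median 0.21), with COL1A2 at 4.58 and 4.97 against 11.1 and 11.9 CPM. The most abundant fibroblast marker, VIM, averaged 27.4 CPM and had a difference of -0.33. Of the 10 tested epithelial and colon markers 7 were positive (median 0.15), but the most abundant of them were not, with differences of -0.15 for KRT18 and -0.21 for KRT8. None of these markers was called, and their part in the result was not tested.

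**Figure D4:**
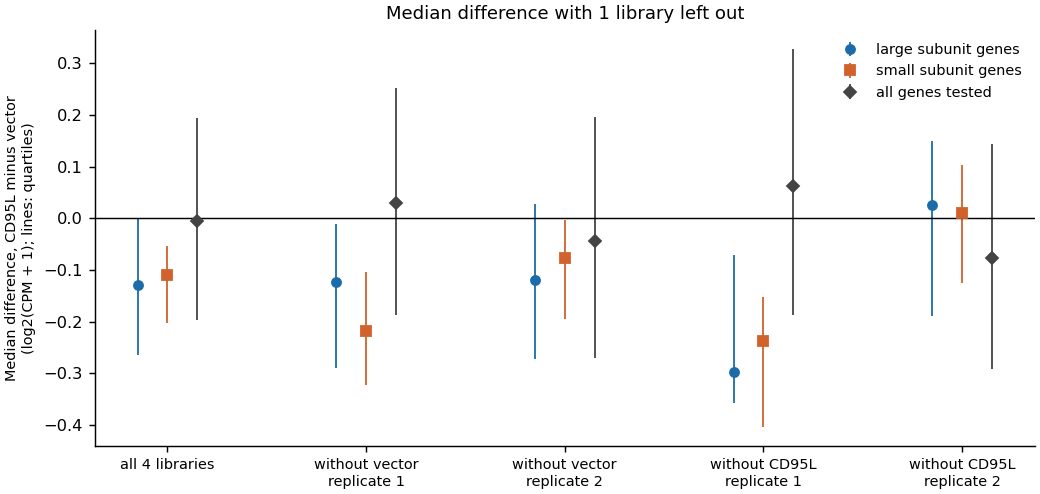
Symbols give the median fitted difference (CD95L minus vector, log2(CPM + 1) scale) of large subunit genes, small subunit genes and all genes tested, and lines their quartiles, with all 4 libraries and with each library left out. The medians of both subunits are below 0 except without CD95L replicate 2, where they are 0.025 and 0.0096.

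The genes with the lowest unadjusted p-values and a negative difference were of both subunits. RPSA, the small subunit protein also known as a laminin receptor, had 15.1 and 15.5 CPM in vector cells, against 13.3 and 7.56 CPM in CD95L cells (difference -0.56 ± 0.29 SE). CD95L replicate 2 was the low library, and without it the difference was -0.19. RPS15A, a small subunit protein, had 27.7 and 25.9 CPM in vector cells, against 19.4 and 19.6 CPM in CD95L cells (-0.44 ± 0.24 SE). The replicates of each group lay close together, and the difference stayed between -0.49 and -0.39 with any library left out. RPS27 behaved alike with 39.5 and 40.4 against 31.1 and 28.9 CPM (-0.40 ± 0.24 SE, and -0.46 to -0.35 with a library left out). RPL7A (-0.45 ± 0.28 SE) depended on its low library, with -0.11 without CD95L replicate 1.

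RPL18, a large subunit protein, had 21.9 and 20.6 CPM in vector cells, against 18.4 and 13.4 CPM in CD95L cells (-0.41 ± 0.26 SE). RPL10, a late-joining protein of the large subunit needed for subunit joining, had 30.1 and 31.95 against 24.9 and 23.3 CPM (-0.35 ± 0.24 SE). RPL35 and RPL23A sit at the exit of the tunnel through which the new protein leaves. RPL35 had 16.9 and 15.1 against 13.0 and 11.5 CPM and RPL23A 20.9 and 25.6 against 18.8 and 17.1 CPM. The groups did not overlap in any of the 8 genes of this kind, which the ordering by p favours.

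The genes with the lowest unadjusted p-values and a positive difference were all of the large subunit. Their p-values in limma ran from 0.082 to 0.67. Of the 18 members with a positive difference, 13 were of the large subunit. RPL36A stood at 1.65 and 1.27 CPM in vector cells, against 1.79 and 3.60 CPM in CD95L cells (0.55 ± 0.29 SE, and 0.19 without CD95L replicate 2). RPL39, which lines the exit tunnel, had 5.78 and 6.40 against 8.30 and 7.78 CPM (0.35 ± 0.24 SE), with neither group overlapping the other and 0.29 to 0.41 with a library left out. RPL26, which lies near the tunnel exit, had 5.10 and 6.24 against 7.60 and 6.67 CPM (0.29 ± 0.25 SE). RPL24, which bridges the subunits, had 14.97 and 15.02 against 19.1 and 16.7 CPM (0.24 ± 0.24 SE). RPL8, a protein close to the peptidyl transferase centre, had 28.7 and 27.6 against 32.3 and 31.3 CPM (0.17 ± 0.24 SE). In RPL17 the groups did not overlap either (32.1 and 37.0 against 39.2 and 38.3 CPM), whereas they overlapped in RPL38 (21.7 and 17.3 against 22.7 and 21.3 CPM) and RPL13A (19.0 and 21.4 against 24.4 and 19.5 CPM).

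Further proteins with well-known roles showed differences within their standard errors or little above them. RPL5 and RPL11 form a particle with 5S RNA that can bind MDM2, the ubiquitin ligase of p53. RPL5 had 42.1 and 40.8 CPM in vector cells, against 35.2 and 32.6 CPM in CD95L cells (-0.28 ± 0.24 SE), with no overlap of the groups. RPL11 had 8.63 and 14.0 against 9.91 and 8.85 CPM and turned from -0.21 to 0.11 without vector replicate 2. The other stalk proteins, RPLP1 (43.6 and 42.9 against 44.9 and 37.4 CPM) and RPLP2 (7.75 and 6.95 against 7.91 and 7.25 CPM), overlapped between groups, as did RPLP0. Per kb of coding length the mean level of RPLP2 was below that of RPLP1 (21.5 against 122 CPM per kb).

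Among the small subunit proteins, RPS3, which lies at the mRNA entry channel, had 31.4 and 36.3 CPM in vector cells, against 34.9 and 24.8 CPM in CD95L cells. RPS14, the gene lost in the 5q- syndrome, had 9.59 and 11.3 against 12.6 and 8.0 CPM. RPS19, the gene most often mutated in Diamond-Blackfan anaemia, had 42.5 and 45.5 against 43.5 and 38.4 CPM, and the groups of all these genes overlapped. RPS27A, made as a fusion with ubiquitin, had 34.8 and 35.4 against 34.0 and 22.3 CPM (-0.34 ± 0.27 SE). Its groups did not overlap, but the difference was -0.05 without CD95L replicate 2. RPS29 had 21.6 and 23.4 against 21.9 and 20.1 CPM.

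Per kb of coding length, paralogs stood below their canonical partners in mean level except in the pair RPL36A and RPL36AL, with the limit of shared sequence given above. RPL3 (27.9 and 31.8 against 25.3 and 23.9 CPM) stood at 22.5 CPM per kb on average and RPL3L, known from muscle, at 4.28 CPM per kb (5.54 and 4.85 against 3.84 and 6.72 CPM). RPL3L has 99.8% of its coding windows to itself. RPL10L, known from testis, was at 0.201 and 0.0397 CPM in vector cells, against 0.393 and 0.400 CPM in CD95L cells, and RPL39L at 0.0803 and 0.278 against 0.131 and 0.400 CPM. Where 3 reads are 0.119 to 0.133 CPM, RPL10L in vector replicate 2 and RPL39L in vector replicate 1 and CD95L replicate 1 rest on 3 reads or fewer. RPL36AL (2.37 and 2.90 against 2.80 and 1.91 CPM) was near RPL36A, also per kb of coding length (7.77 against 6.47 CPM per kb). RPL26L1 stood at 2.13 and 3.06 against 4.41 and 1.78 CPM, with the CD95L libraries as its highest and its lowest. RPL22 (23.5 and 21.4 against 19.7 and 17.2 CPM) and RPL22L1 (12.7 and 12.4 against 11.8 and 9.12 CPM) were both without overlap of the groups, with differences of -0.28 and -0.25. RPS27L, induced by p53, had 2.77 and 5.44 against 4.19 and 3.16 CPM, and RPL7L1 had 11.4 and 7.99 against 11.0 and 7.83 CPM. The groups overlapped in both.

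The snoRNAs inside the members' introns gave far more reads than the mRNAs around them. Of the members, 27 (18 large, 9 small) host 54 annotated snoRNAs with a deposited symbol. Annotated snoRNAs under other symbols were not counted. Of the 54, 39 are of the C/D box class, which guide 2'-O-methylation of RNA, and 15 of the H/ACA class, which guide pseudouridylation. Sequences are shown for the snoRNAs of RPL7A, the most abundant member, and for the 3 most abundant hosted snoRNAs. Capitals mark the first TGATG (box C) and the last CTGA (box D) on the transcript strand, and 269 of 313 annotated SNORD transcripts (85.94%) hold both in this order.
SNORD24 (hg38 chr9:133349396-133349470, plus strand, RPL7A): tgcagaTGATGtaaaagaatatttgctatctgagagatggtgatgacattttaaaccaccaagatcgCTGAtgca
SNORD36B (hg38 chr9:133350095-133350168, plus strand, RPL7A): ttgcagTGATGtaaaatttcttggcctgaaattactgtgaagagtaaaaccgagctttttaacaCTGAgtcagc
SNORD36A (hg38 chr9:133350456-133350528, plus strand, RPL7A): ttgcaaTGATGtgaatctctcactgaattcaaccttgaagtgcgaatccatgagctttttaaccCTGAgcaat
SNORD36C (hg38 chr9:133350847-133350912, plus strand, RPL7A): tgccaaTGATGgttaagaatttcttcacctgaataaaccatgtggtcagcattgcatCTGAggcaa
SNORD68 (hg38 chr16:89561434-89561517, plus strand, RPL13): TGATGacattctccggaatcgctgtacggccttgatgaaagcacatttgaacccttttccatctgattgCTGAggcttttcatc
SNORD43 (hg38 chr22:39319050-39319113, minus strand, RPL3): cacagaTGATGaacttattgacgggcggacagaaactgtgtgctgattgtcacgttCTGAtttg
SNORD42A (hg38 chr17:28723429-28723492, plus strand, RPL23A): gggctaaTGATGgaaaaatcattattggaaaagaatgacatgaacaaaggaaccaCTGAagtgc
SNORD68 reached 19130 and 20866 CPM in vector cells, against 24046 and 24406 CPM in CD95L cells, SNORD43 11335 and 15838 against 18197 and 14896 CPM, and SNORD42A 6275 and 8865 against 11311 and 9543 CPM. In the RPL7A introns, SNORD24 had 670 and 1191 against 1381 and 1027 CPM. SNORD36B (651 and 762 against 743 and 613 CPM) and SNORD36A (432 and 447 against 489 and 393 CPM) were above the host in every library, and SNORD36C (27.4 and 49.6 against 58.7 and 39.8 CPM) was below it.

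The level of a snoRNA exceeded that of its host in 44 of 54 cases, 36 of 39 C/D and 8 of 15 H/ACA snoRNAs. The median ratio of the mean CPM was 21.3 for C/D and 1.68 for H/ACA snoRNAs. SNORD58B (RPL17), SNORA7A (RPL32) and SNORD73A (RPS3A) were at 0 in all 4 libraries. The ratio of summed snoRNA to summed host CPM was 62.6 and 73.7 in vector and 105 and 89.2 in CD95L cells, with no overlap of the groups. Of the 54, 42 overlap an exon of some annotated host transcript, so that the counting could have split or dropped their reads.

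Hosts and snoRNAs leaned in opposite directions, without any call. The difference was positive in 44 of the 51 snoRNAs tested (median 0.21) and in 7937 of all 16127 genes tested. limma called 0 of these snoRNAs and 0.00620% of all genes. The difference was negative in 22 of the 27 hosts (median -0.19). The 56 tested members without a hosted snoRNA among the deposited symbols had a median of -0.10, with 43 negative. Some of them may host snoRNAs whose symbols were not among those deposited. With a library left out the median of the snoRNAs stayed between 0.088 and 0.29, with 36 to 47 of 51 positive. CD95L replicate 2, which carried the lean of the mRNA fragments, did not carry that of the snoRNAs, whose median without it was 0.29. The snoRNA median was 0.11 without CD95L replicate 1 and 0.088 without vector replicate 1. CD95L replicate 1 had the smallest share of reads on genes without a small RNA symbol (26.7%). The part of this in the lean of the snoRNAs was not tested. The hosted snoRNAs summed to 67150 and 79740 CPM in the vector and 92340 and 83270 CPM in the CD95L libraries.

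**Figure D5:**
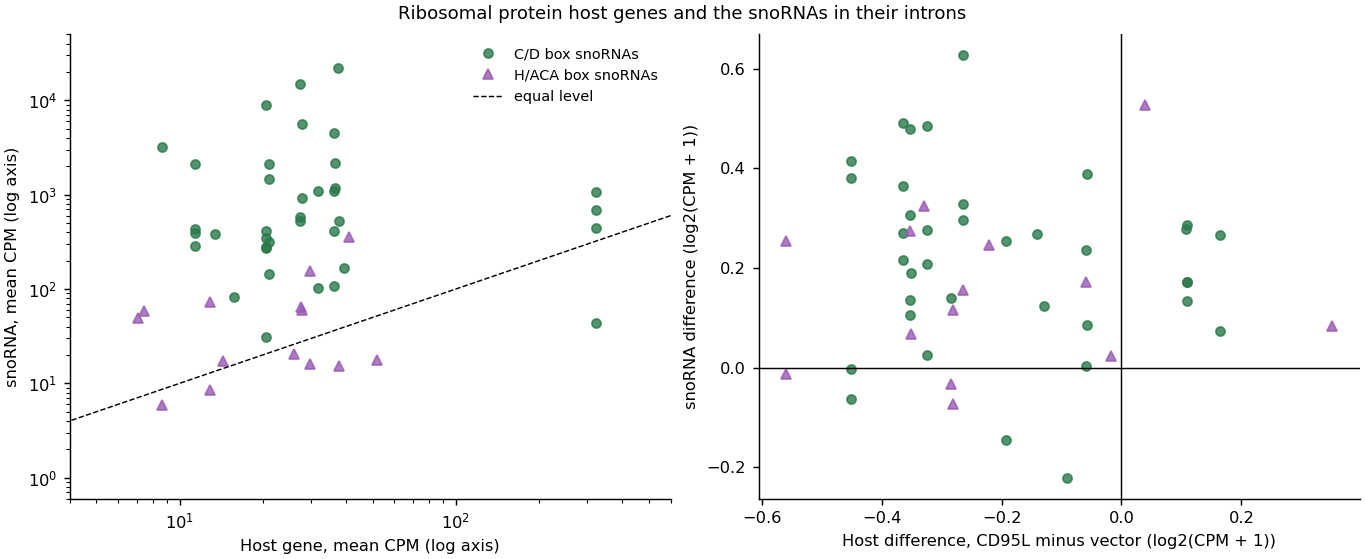
The left panel plots the mean CPM of each hosted snoRNA above 0 against that of its host gene (log axes, dashed line at equal level, C/D and H/ACA box classes by symbol), and the right panel their fitted differences (CD95L minus vector, log2(CPM + 1) scale). Most C/D snoRNAs lie above the line, and most points of the right panel have a positive snoRNA and a negative host difference (44 of 51 snoRNAs positive, 22 of 27 hosts negative).

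Other genes of the translation machinery gave a mixed picture. Of 30 tested genes for cytosolic translation factors and other TOP mRNAs, 22 had a negative difference (median -0.12), and 0 were called. As for the ribosomal proteins, the median turned to 0.019 without CD95L replicate 2. The highest of them were EEF1A1, the elongation factor that delivers tRNA (222 and 228 against 218 and 193 CPM), and PABPC1, the poly(A)-binding protein (238 and 210 against 227 and 183 CPM). GNB2L1, the older symbol of RACK1, a scaffold protein on the small subunit, had 28.1 and 30.8 against 25.7 and 22.2 CPM. FAU, a ribosomal protein made as a fusion and not taken by the symbol rule, had 20.6 and 16.3 against 12.8 and 17.5 CPM. Of 64 ribosome biogenesis factors 33 were negative (median -0.03) and of 73 tested mitochondrial ribosomal protein genes 36 (median 0.0013), with 0 called in either list. Among all 16127 genes tested, 50.8% were negative and 0.00620% were called, so 0 calls in lists of this size says little about them.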

How the data were processed

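Per the labels and the study's methods, total RNA was used for Illumina small RNA libraries. The authors trimmed reads with TrimGalore, aligned them to hg38 with TopHat (the submitters' processing notes also name Bowtie2), assigned them to genes by HTSeq and ran edgeR. Not given in the sources used here: versions, annotation, strand setting. For 26485 symbols the authors deposited CPM per library, summing to 1000000 in each. The deposited columns of the authors' own comparison (log2 values and fold change, p-value, adjusted p-value) were not used. All values (100%) were whole multiples of 1 read within a tolerance of 0.01 read, which gave totals of 24915394 and 25163566 reads (vector) and 22897068 and 22488145 reads (CD95L). A count of 0 allows 3 reads.

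limma 3.58.1 (R 4.3.3) was fitted to log2(CPM + 1) over all genes averaging 1 CPM or more, with no covariate, two-sided, with Benjamini-Hochberg adjustment over all genes and a threshold of 0.05. This scale understates the change of low genes. DESeq2 1.42.0 and edgeR 4.0.16 (TMM factors, quasi-likelihood test) on the recovered reads, pseudocounts of 0.1 and 5, other filters and scalings, a replicate block and each library left out were alternatives. The fits were tested on data simulated with a common dispersion. There limma recovered 14% of 2-fold and 80% of 4-fold changes. edgeR and DESeq2 each recovered 12% of 2-fold changes, and 94% and 92% of 4-fold changes. Coordinates, coding lengths, pseudogenes and hosted snoRNAs came from GENCODE release 44. Python 3.11.15, pandas 2.3.3 and numpy 2.4.6 were used.

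The members and lists were chosen with earlier results of these data known. Genes were named by rule: the 10 highest by mean CPM and 5 highest per kb, the 8 lowest p-values in each direction, 8 paralog pairs and a list of members with known roles. Of the genes so named, 1 is not reported here. Of other lists, at most 3 of the highest genes were named, besides GNB2L1 and FAU, which were added after their values were seen. Whether replicate numbers pair the libraries was not given, and the main fit did not pair them.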

Additional observations from a re-analysis of the deposited data

How the results depend on the processing

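No ribosomal protein gene was called in the main fit or any of the 14 other settings, where the smallest adjusted p of any member was 0.314 (without CD95L replicate 1). The count over all genes, 1 in limma, was 0 with a pseudocount of 0.1 or no filter, 30 with TMM factors, 31 with DESeq2 size factors, 29 with a mean-variance trend, 72 in edgeR, 37 in DESeq2, and 5 to 83 with a library left out. Deviations of libraries with a shared replicate number showed almost no correlation across genes (-0.00198), which cannot settle whether the design paired them. A replicate block called 80 genes and 0 members. The median difference ranged with a library left out from -0.284 to 0.0252 over the members, -0.297 to 0.0252 over the large and -0.238 to 0.00964 over the small subunit genes. It turned without CD95L replicate 2 alone. The difference in share (-0.0297 percentage points) was -0.0182 without RPL7A and RPL34, an alternative chosen after seeing the data. Among the reads of genes without a small RNA symbol, a smaller base, it was -0.046 percentage points. As a ratio of means, CD95L over vector was 0.885 of all gene reads and 0.943 on that smaller base. There CD95L replicate 1 (0.889%) lay above both vector libraries. The difference in the ratio of large to small (-0.0566) ran from -0.221 to 0.108 with a library left out, with 0.0725 without vector replicate 1 and 0.108 without CD95L replicate 1, and was 0.0127 without RPL7A and RPL34. With a library left out, 14 of the 40 named genes tested turned: RPL11 (-0.54 to 0.11), RPL13A (-0.04 to 0.26), RPL26L1 (-0.36 to 0.60), RPL36AL (-0.32 to 0.07), RPL3L (-0.35 to 0.32), RPL7 (-0.30 to 0.04), RPL7L1 (-0.27 to 0.19), RPLP0 (-0.31 to 0.07), RPLP1 (-0.21 to 0.05), RPLP2 (-0.03 to 0.11), RPS14 (-0.34 to 0.25), RPS27L (-0.47 to 0.30), RPS3 (-0.43 to 0.05) and RPS6 (-0.36 to 0.15). In edgeR and DESeq2, RPL3L (0.03 and 0.02) and RPS14 (0.01 and 0.01) turned as well. The cause was not tested. With 2 libraries per group the standard errors of the members were 0.24 to 0.32, and RPL10L and RPL39L rest on a few reads. Between 0 and 13 members had an unadjusted p under 0.05, most with no filter, where 2138 of 26485 genes had one in limma.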
